A study of Mus musculus with 11 samples.

Results

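The sirtuins are a family of 7 genes, Sirt1 to Sirt7, taken here by symbol from the gene count table of RPE/choroidal RNA, where all 7 were present among 14602 genes. The tissue came from C57BL/6J mice that were all 12 months old at collection. The 6 naïve control libraries were from untreated mice, and the 5 laser treated libraries were from mice given the 2RT nanosecond laser at 9 months of age, 3 months before collection. The samples were whole RPE/choroid and not a sorted cell type, no transgene was involved, and the RNA was pre-amplified with a SmartSeq v4 kit, which is made for small amounts of RNA. The comparison asked whether the sirtuin transcripts differed in the RPE/choroid 3 months after laser.

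Sirtuins are enzymes that use NAD+ to take acetyl and other acyl groups off lysines, so that their activity depends on the supply of NAD+. Sirt1 and Sirt6 act mainly in the nucleus, Sirt7 in the nucleolus and Sirt2 mainly in the cytosol, whereas Sirt3, Sirt4 and Sirt5 are mitochondrial. The RPE is a pigmented epithelium that supports the photoreceptors and relies heavily on mitochondrial metabolism, and sirtuins are known there for their part in stress responses, mitochondrial function and ageing.

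Libraries held 25700881 to 38755994 counts in total, and every sirtuin had at least 72 counts in each library. Defining RPE transcripts were abundant in both groups, with Rpe65, the retinoid isomerase, between 7718 and 15720 CPM (counts per 1000000 counts of a library) over all libraries. Photoreceptor transcripts were present too, with Gnat1, rod transducin, between 598 and 3223 CPM over all libraries. The part of photoreceptor RNA in the sirtuin values was not tested. Best1, a chloride channel of the RPE chosen after its values were seen, was nearly absent, at 1.20 CPM in naïve control and 0.71 CPM in laser treated samples. In edgeR no gene of the table had an adjusted p under 0.05 (0% of 14602 genes), while 2325 genes, or 15.9%, had an unadjusted p under 0.05, and 1203 genes, or 8.24%, had one and were higher after laser. DESeq2 passed 502 of the 7512 genes to which it gave an adjusted p. The slope of log2 CPM on GC content, per 10 percentage points of GC, ran from -0.36 to -0.01 in naïve control libraries and from 0.01 to 0.27 in laser treated libraries, so the groups did not overlap in it. Across genes, naïve control 6 and laser treated 5 correlated more with the other group than with their own. Laser treated 2 held both Xist and Y-linked transcripts, which no other library did to this degree, and whether it comes from 1 mouse was not tested.

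Sirt2 and Sirt7 were the sirtuins with the largest differences relative to their error, both higher after laser, Sirt2 by 1.27-fold (95% interval 1.07 to 1.51) and Sirt7 by 1.37-fold (95% interval 1.07 to 1.75). After removal of the GC trend the log2 fold changes of 0.35 and 0.46 were 0.20 and 0.29, with 95% intervals that include 0. Neither difference passed the adjusted threshold in either fit. None of the other 5 had an unadjusted p under 0.05. In levels, Sirt2 alone made up 47.8% ± 3.8 (SD, n = 11) of the summed sirtuin signal per length, or 29.7% with the TPM of the assembled transcripts. Sirt6 was the lowest by both, and Sirt5 was the lowest when the exons of all GENCODE transcripts set the length.

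Levels were compared between genes as CPM per kilobase of exon, with the exon length taken from GENCODE transcripts that have a RefSeq entry. Sirt2, the cytosolic deacetylase of tubulin, had 62.5 ± 10.7 CPM per kb over all libraries (SD, n = 11), more than 92.1% of the genes of the table. Sirt7, which acts on nucleolar chromatin, had 23.8 ± 5.7, and Sirt3, the main mitochondrial deacetylase, had 20.7 ± 2.8. Sirt4 had 8.92 ± 1.81 and Sirt5, the mitochondrial desuccinylase, had 7.73 ± 2.27. Sirt1, the best studied nuclear deacetylase, had 4.32 ± 2.12, and Sirt6, a chromatin deacetylase linked to DNA repair, had 2.41 ± 1.04. In bulk tissue such as this, fewer cells of a type and less RNA per cell cannot be told apart.

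Within libraries, Sirt2 exceeded Sirt7 in 11 of 11 by 1.41 ± 0.22 on the log2 scale (mean ± SD), and Sirt3 exceeded Sirt4 in 11 of 11 by 1.23 ± 0.32. Sirt7 and Sirt3 could not be ordered beyond their spread, since Sirt7 was higher in 7 of 11 libraries by 0.18 ± 0.43. Sirt4 and Sirt5 could not be ordered either, with Sirt4 higher in 7 of 11 by 0.23 ± 0.40. Sirt5 was above Sirt1 in 10 of 11 libraries by 0.98 ± 0.94, and Sirt1 above Sirt6 in 10 of 11 by 0.77 ± 0.65. The order below Sirt2 depended on the measure. With the exons of all GENCODE transcripts as length, Sirt4 moved to the third place and Sirt5 to the seventh. With the TPM of the assembled transcripts, Sirt3 was second at 70.5 ± 16.0 TPM behind Sirt2 at 77.7 ± 12.5 TPM (SD, n = 11), and the share of Sirt2 in the family was 29.7%.

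**Figure D1:**
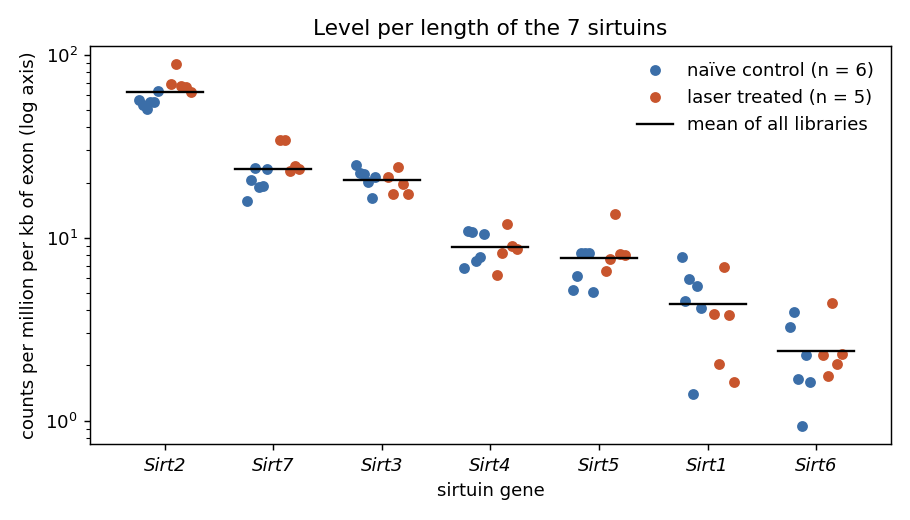
Level of each sirtuin in CPM per kilobase of exon (log axis), 1 point per library, 6 naïve control and 5 laser treated, with a line at the mean of all 11 libraries. Sirt2 sits above the other 6 genes in every library, Sirt7 and Sirt3 share a range, and Sirt1 and Sirt6 spread most, Sirt1 from 1.39 to 7.88 and Sirt6 from 0.93 to 4.40 CPM per kb.

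Summed over the family, the level was 120.4 ± 6.5 CPM per kb in naïve control libraries (SD, n = 6) and 142.5 ± 14.1 in laser treated libraries (SD, n = 5), with ranges of 112.0 to 129.9 and 124.3 to 160.0. The groups overlapped. Most of this difference lay in Sirt2, which went from 55.7 ± 4.4 to 70.7 ± 10.4 CPM per kb, and in Sirt7, which went from 20.4 ± 3.1 to 27.9 ± 5.6.

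Sirt2 lies on chromosome 7 from 28766735 to 28788661 on the forward strand (GRCm38). Its CPM in the naïve control libraries had a lowest value of 95.1, a median of 103.1 and a highest value of 119.5. The laser treated libraries 1 to 5 had 129.1, 166.7, 126.0, 124.2 and 117.3 CPM. Of the 5 laser treated libraries, 4 were above every naïve control library, and laser treated 5 was below naïve control 6. The group means were 104.4 ± 8.2 (SD, n = 6) and 132.7 ± 19.5 CPM (SD, n = 5). The log2 fold change, laser treated minus naïve control, was 0.35 with a standard error of 0.11, and in edgeR the unadjusted p was 0.0098 and the adjusted p 0.200. Laser treated 2 was far above the other libraries of its group, and without it the log2 fold change was 0.25. Without naïve control 6 and laser treated 5 it was 0.43, and after removal of the GC trend 0.20.

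Sirt7 lies on chromosome 11 from 120618372 to 120625240 on the reverse strand. Its CPM in the naïve control libraries had a lowest value of 27.3, a median of 34.5 and a highest value of 41.3. The laser treated libraries 1 to 5 had 58.9, 58.9, 40.1, 42.5 and 41.0 CPM. Laser treated 1 and 2 stood well above all others, laser treated 4 was just above the highest naïve control library, and laser treated 3 and 5 were within the naïve control range. The naïve control mean was 35.2 ± 5.3 CPM (SD, n = 6), the laser treated mean was 48.3 ± 9.7 CPM (SD, n = 5), and the log2 fold change was 0.46 with a standard error of 0.17. The unadjusted p in edgeR was 0.016 and the adjusted p 0.220. Without laser treated 1 the log2 fold change was 0.37 and the unadjusted p 0.051, and the same values were found without laser treated 2. Without naïve control 6 and laser treated 5 the log2 fold change was 0.56, and after removal of the GC trend 0.29.

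**Figure D2:**
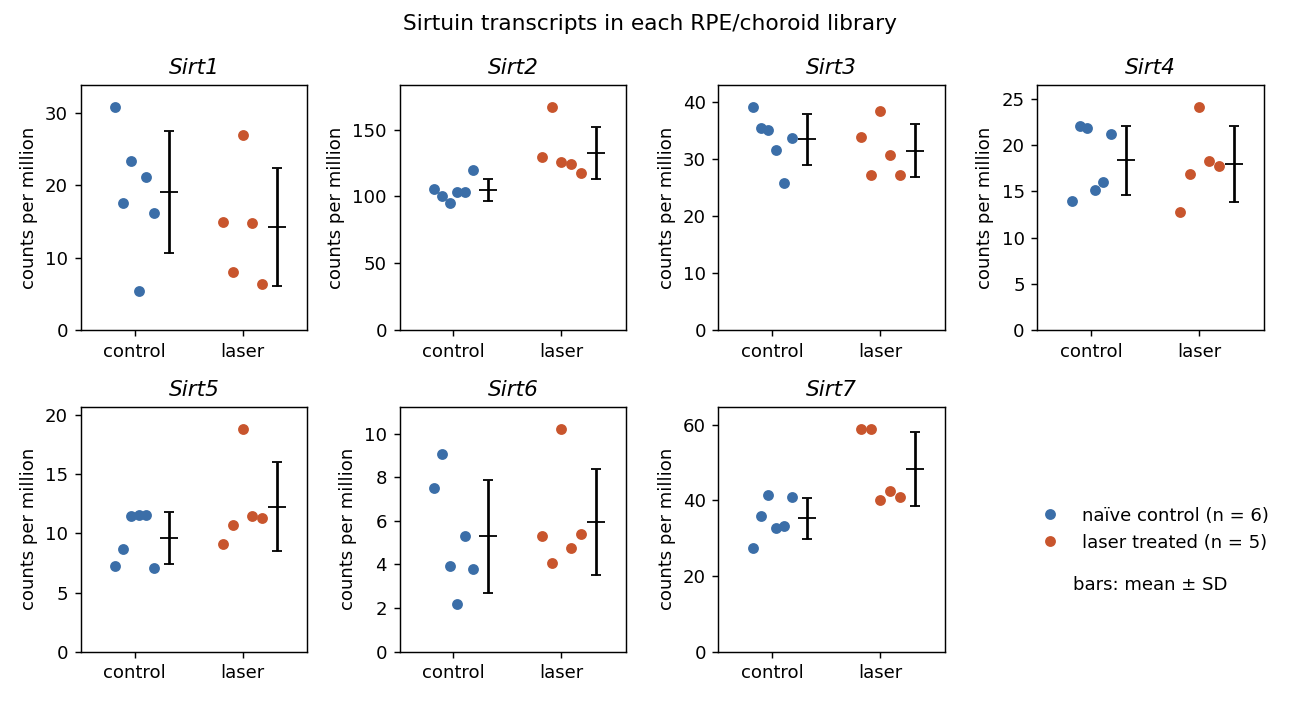
CPM of each sirtuin in every library, with naïve control (n = 6) and laser treated (n = 5) points side by side and the mean ± SD beside each group, all axes starting at 0. Sirt2 and Sirt7 are the 2 panels in which most laser treated points lie above the naïve control points. The groups overlap in every panel.

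Of the 7 sirtuins, 2 had an unadjusted p under 0.05 in edgeR, both higher after laser, against 8.24% of all genes in that direction, and 0 had an adjusted p under 0.05. DESeq2 also gave 0 sirtuins an adjusted p under 0.05, with 0.073 for Sirt2 and 0.096 for Sirt7, and it gave none to Sirt5 and Sirt6. Over all alternative settings the adjusted p ranged from 0.073 to 0.798 for Sirt2 and from 0.096 to 0.805 for Sirt7. No sirtuin had groups that did not overlap in CPM, as 204 genes, or 1.4%, did with laser treated libraries higher.

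The remaining nuclear sirtuins had the largest coefficients of variation of the family. Sirt1 lies on chromosome 10 from 63319005 to 63381704 on the reverse strand. Its CPM ran from 5.44 to 30.8 in naïve control libraries with a median of 19.4. The laser treated libraries 1 to 5 had 14.99, 7.99, 27.0, 14.8 and 6.34 CPM. The 2 groups overlapped over most of their range, and the log2 fold change was -0.42 with a standard error of 0.42 (95% interval -1.33 to 0.48). It was -0.79 without laser treated 3, -0.24 without naïve control 1, -0.24 without laser treated 5, -0.27 without laser treated 2 and -0.12 after removal of the GC trend. Its coefficient of variation over all libraries was 49.1%, against a median of 32.1% for the 2400 genes of like level. Sirt6 lies on chromosome 10 from 81621785 to 81627797 on the reverse strand. It ran from 2.17 to 9.09 CPM in naïve control libraries with a median of 4.60, and the laser treated libraries 1 to 5 had 5.31, 4.08, 10.2, 4.76 and 5.38 CPM. Its log2 fold change was 0.17 with a standard error of 0.41 (95% interval -0.72 to 1.06), an interval that reaches 2.08-fold upwards. Without laser treated 3, the highest library, the log2 fold change of Sirt6 was -0.11, and its sign also turned after removal of the GC trend, at -0.09. Without naïve control 2 it was 0.39 and without naïve control 4 it was -0.0052. The coefficient of variation of Sirt6 was 43.2%, and 35.2% of the 1582 genes of like level had a lower one.

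Differences in the 3 mitochondrial sirtuins were smaller than the spread of their libraries. Sirt3 lies on chromosome 7 from 140863666 to 140882309 on the reverse strand and was the steadiest of the family, with a coefficient of variation of 13.7%, and only 3.97% of the genes of like level had a lower one. It ran from 25.7 to 39.0 CPM in naïve control libraries with a median of 34.3, and the laser treated libraries 1 to 5 had 33.8, 27.2, 38.3, 30.7 and 27.2 CPM. Its log2 fold change was -0.09 with a standard error of 0.16 (95% interval -0.42 to 0.25), and removal of the GC trend turned the sign to 0.07. The study also ran a quantitative PCR array of ageing genes on RPE/choroid of this strain. It reported Sirt3 as the only gene significantly altered in laser treated eyes, against the untreated fellow eye. The comparison here was with naïve control mice instead. Sirt4, on chromosome 5 from 115478010 to 115484725 on the reverse strand, removes lipoyl and other acyl groups. It ran from 13.9 to 22.1 CPM in naïve control libraries with a median of 18.6, and the laser treated libraries 1 to 5 had 12.7, 16.9, 24.1, 18.3 and 17.7 CPM. Its log2 fold change was -0.03 with a standard error of 0.21 (95% interval -0.49 to 0.42), and its sign changed in 10 of 28 alternative settings. Sirt5, on chromosome 13 from 43365496 to 43395203 on the forward strand, ran from 7.04 to 11.6 CPM in naïve control libraries with a median of 10.1. Its laser treated libraries 1 to 5 had 9.13, 10.7, 18.8, 11.4 and 11.3 CPM. The log2 fold change of Sirt5 was 0.36 with a standard error of 0.26 (95% interval -0.20 to 0.91), close to that of Sirt2 but with a larger error, and it was 0.15 without laser treated 3.

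GC content differs between the members. Sirt6, Sirt7, Sirt2 and Sirt4 have transcripts of 58.4%, 55.6%, 54.2% and 53.5% GC, above the median of 49.8% over all genes, and Sirt5, Sirt3 and Sirt1 have 47.4%, 46.4% and 44.0%. Over all genes with a GC content from 53% to 59% the median log2 fold change was 0.25, and over those from 43% to 48% it was -0.18. After removal of the GC trend from each library, the log2 fold change was 0.20 with a standard error of 0.15 for Sirt2 (95% interval -0.11 to 0.52) and 0.29 with a standard error of 0.21 for Sirt7 (95% interval -0.17 to 0.74). No sirtuin then had an unadjusted p under 0.05, against 6.88% of all genes. The source of the GC slope was not tested.

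**Figure D3:**
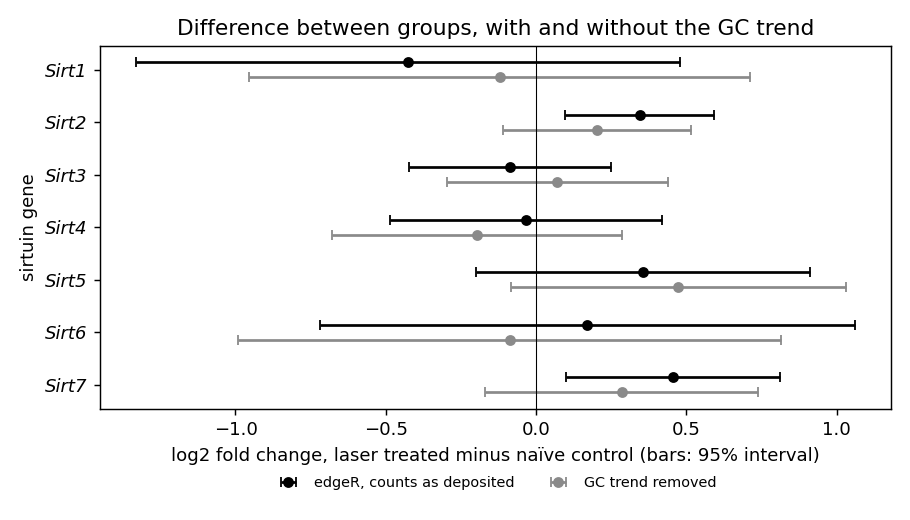
Log2 fold change of each sirtuin, laser treated minus naïve control, with its 95% interval, from edgeR on the counts as deposited (black) and after removal of the GC trend (grey). The black intervals of Sirt2 and Sirt7 lie above 0, from 0.10 to 0.59 and from 0.10 to 0.81, and every grey interval includes 0.

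**Figure D4:**
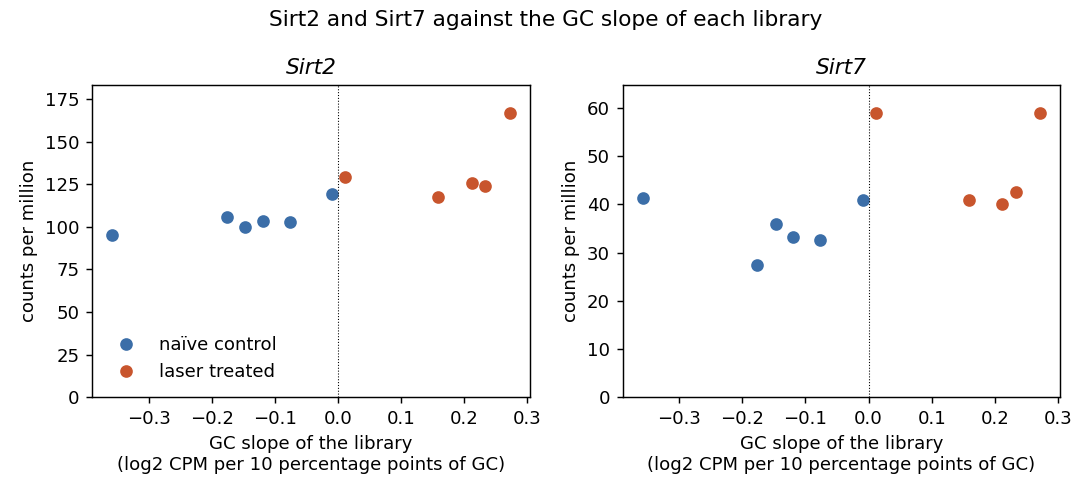
CPM of Sirt2 and of Sirt7 (vertical axes, from 0) against the GC slope of each library in log2 CPM per 10 percentage points of GC (horizontal axes), 1 point per library. All naïve control libraries have a slope below 0 and all laser treated libraries one above 0, and laser treated 2 has the highest slope, 0.27, and the highest level of both genes.

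The headers of the assembled transcripts carry a label, R1 for naïve control 1 to 3 with laser treated 1 and 2 and R2 for the other libraries, whose meaning is not given in the sources used here. Within R1, Sirt2 had a log2 fold change of 0.58 with a standard error of 0.19, and within R2 it had 0.19 with a standard error of 0.15. For Sirt7 these values were 0.78 with a standard error of 0.24 and 0.23 with a standard error of 0.20. Both genes kept their direction within each label. Sirt1 did not, with -1.03 (SE 0.40) within R1 and 0.19 (SE 0.61) within R2. Sirt6 had -0.53 (SE 0.59) and 0.88 (SE 0.56). The difference between the labels was not tested.

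The assembled transcripts gave a second view of the same libraries. Each assembled piece has 1 exon and a mean coverage, and the coverage on the exons of a gene was summed and scaled to ppm of all covered bases in its library. For Sirt2 this measure ran from 54.8 to 66.6 ppm in naïve control libraries, and the laser treated libraries 1 to 5 had 76.5, 94.1, 67.9, 76.7 and 69.3 ppm. Here the groups did not overlap, as was the case with laser treated libraries higher for 239 of 14213 genes, or 1.68%. No other sirtuin separated in this measure, and Sirt7 ran from 28.0 to 39.1 ppm in naïve control libraries and from 37.0 to 66.2 ppm in laser treated libraries. Nearly all assembled coverage of Sirt2, 99.5% ± 0.4 (SD, n = 11), lay on its last exon, which is 745 bases long and makes up 39.7% of the exon length. The last exon held 92.4% ± 7.5 of the coverage of Sirt6, 77.1% ± 10.2 of that of Sirt1 and 70.4% ± 9.6 of that of Sirt7, but only 29.8% ± 12.6 of that of Sirt4. The assembled measure of Sirt2 is therefore largely a measure of the 3′ end of its transcript. Since no assembled piece joins exons, uneven RNA and uneven assembly cannot be told apart here. Whether the gene counts, and so the levels in CPM per kb, share this unevenness was not tested. Per kb of exon, the mean assembled coverage was 36.4 ppm for Sirt2 and 23.4 ppm for Sirt7. It was 8.47 ppm for Sirt5, above 7.25 ppm for Sirt4.

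Sirt2 and Sirt7 each start close to another gene, and both start regions are shown because they belong to the sirtuins that differed most. Nfkbib, which encodes an inhibitor of NF-kB, begins upstream of Sirt2 and is read in the opposite direction, so the 94 bases between their outermost facing exons lie upstream of both. A further Nfkbib transcript starts inside Sirt2 and has this stretch in an intron. Mafg, a small Maf transcription factor, lies upstream of Sirt7 on the same strand, with 102 bases between its end and the first exon of the coding Sirt7 transcript, into which retained-intron transcripts of Sirt7 extend. The sequences are from RefSeq, build GRCm38.p6, 5′ to 3′ on the strand of the sirtuin, with matches to a short motif in capitals.
Sirt2, chr7:28766641-28766734, forward strand: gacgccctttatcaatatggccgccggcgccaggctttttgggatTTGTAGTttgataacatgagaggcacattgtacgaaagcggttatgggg
Sirt7, chr11:120625015-120625116, reverse strand: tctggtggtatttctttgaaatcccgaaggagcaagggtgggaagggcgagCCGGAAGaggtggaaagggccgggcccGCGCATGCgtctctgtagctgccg

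The capitals in Sirt2 mark TTGTAGT, the reverse complement of ACTACAA, which is part of the element bound by ZNF143. The capitals in Sirt7 mark CCGGAAG, the core bound by ETS factors, and GCGCATGC, the core bound by NRF1, a regulator of nuclear genes for mitochondrial proteins. In windows from 250 bases before to 50 bases after each RefSeq start, searched on both strands, ACTACAA was found for Sirt2 and Sirt4 and in 3.24% of 32851 windows. CCGGAAG was found for Sirt3, Sirt6 and Sirt7 and in 8.86% of windows, and the NRF1 core for Sirt6 and Sirt7 and in 2.71%. The E-box CACGTG was found for Sirt1 alone among the sirtuins and in 7.15% of windows. The GC box GGGCGG, found for every sirtuin except Sirt4, was in 35.7% of windows. A match describes letters and not a bound site.

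The neighbours of Sirt2, Sirt3 and Sirt7 were chosen by position after their values were seen. Nfkbib had 26.8 ± 3.1 CPM in naïve control (SD, n = 6) and 36.2 ± 7.6 CPM in laser treated libraries (SD, n = 5). Its log2 fold change was 0.44 with a standard error of 0.17 and an edgeR adjusted p of 0.233. After removal of the GC trend the log2 fold change of Nfkbib, a transcript of 58.8% GC, was 0.20, beside 0.20 for Sirt2. The pair shares 42 exon bases when all GENCODE transcripts are counted and 0 among those with a RefSeq entry. Mafg, beside Sirt7, had a log2 fold change of 0.26 with a standard error of 0.23, and 0.10 after removal of the GC trend. Sirt3 shares 61 exon bases with Ric8a and 152 with Psmd13 among transcripts with a RefSeq entry, and both run on the other strand. Ric8a, a chaperone of G protein subunits, had a log2 fold change of 0.46 with a standard error of 0.18, and 0.29 after removal of the GC trend, while Psmd13, a proteasome subunit, had -0.04 with a standard error of 0.17. The strand setting of the counting is not given in the sources used here, so reads in these shared stretches cannot be told apart.

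Markers of other cell types were set beside Sirt2, since Sirt2 is known to be abundant in myelinating cells. Of 10 myelin and Schwann cell markers 8 were measured, 6 of them higher after laser and 5 of these with an unadjusted p under 0.05, against 8.24% of all genes in that direction, and the median log2 fold change of the list was 0.90. After removal of the GC trend 4 of the 8 had such a p, against 6.88% of all genes. The other 2 of the 10 were not analysed here. The summed CPM of the list ran from 420.8 to 745.6 in naïve control and from 621.5 to 1392 in laser treated libraries. Mbp, myelin basic protein, ran from 24.3 to 164.7 CPM in naïve control libraries, and the laser treated libraries 1 to 5 had 566.1, 30.1, 69.5, 268.5 and 440.1 CPM. Laser treated 2, with the highest Sirt2, thus had the lowest Mbp of its group, and naïve control 4, with the highest Mbp of its group, had 103.0 CPM of Sirt2. Sox10, in contrast to Mbp, was highest of all libraries in laser treated 2, at 269.5 CPM. Cnp, an enzyme of myelin, ran from 11.4 to 21.2 CPM in naïve control and from 20.0 to 58.1 CPM in laser treated libraries, and Sox10, a transcription factor of Schwann cells and melanocytes, from 97.8 to 149.5 and from 147.8 to 269.5 CPM. Mag, a myelin glycoprotein, was the 1 marker whose groups did not overlap, with 0 to 1.51 CPM in naïve control and 1.75 to 15.5 CPM in laser treated libraries and counts of 0 in 2 libraries, and 1.4% of all genes separated in that direction. The members without such a p, named after their values were seen, were Pmp22 at -0.05 (SE 0.14), Mal at 0.07 (SE 0.74) and Prx, a Schwann cell protein, at -1.46 (SE 1.28). The part of myelin in the Sirt2 values was not tested.

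The other marker lists held at most 1 gene each with an unadjusted p under 0.05. It came to 8.33% of the RPE, 10% of the photoreceptor and 25% of the blood markers, against 15.9% of all genes. Of 12 RPE markers 4 were higher and 8 lower after laser (median log2 fold change -0.08), and Mitf, the pigment cell transcription factor, was the 1 with an unadjusted p under 0.05, at -0.49 with a standard error of 0.18. The log2 fold change of Rpe65 was -0.19 (SE 0.18) and that of Rlbp1, the retinaldehyde-binding protein, was 0.26 (SE 0.14). Of 10 photoreceptor markers 9 were lower, with a median of -0.26. Among them Gnat1, rod transducin, had 0.05 (SE 0.50) and Cnga1, the rod channel subunit, had -1.42 (SE 0.53) with an unadjusted p under 0.05. All 4 measured blood markers were lower, with Hbb-bs at -1.13 (SE 0.47) and Hba-a1 at -0.86 (SE 0.45), the first with an unadjusted p under 0.05. After removal of the GC trend 3 of the 4 had one, against 6.88% of all genes. No marker of endothelium (8 measured, median 0.26), fibroblasts (6, 0.39), melanocytes (6, -0.04), macrophages (8, 0.05), skeletal muscle (7, 0.36) or epidermis and conjunctiva (5, -0.52) had an unadjusted p under 0.05 in edgeR. The first 2 members of these lists had log2 fold changes of 0.34 and -0.25 for Pecam1 and Cdh5, 0.59 and 0.56 for Col1a1 and Col1a2, and 0.01 and 0.44 for Mlana and Pmel. They were 0.09 and 0.28 for Cd68 and Csf1r, 0.47 and 0.83 for Acta1 and Ckm, and -0.52 and 0.40 for Krt5 and Krt14.

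Genes that make or use NAD+ were examined as the supply side of sirtuin activity. Of 19 genes for NAD synthesis 10 were measured, 7 higher and 3 lower after laser, with a median log2 fold change of 0.30 beside -0.02 over all genes. An unadjusted p under 0.05 was found for 3 of the higher and 1 of the lower genes, against 15.9% of all genes in either direction. Among the 3 higher genes was Nadk, which uses NAD and does not make it. After removal of the GC trend it was found for 0 of the 10, against 6.88% of all genes. Nampt, the rate-limiting enzyme of NAD salvage, had 53.6 ± 15.1 CPM in naïve control (SD, n = 6) and 37.4 ± 3.2 CPM in laser treated libraries (SD, n = 5). Its laser treated values, 40.1, 33.4, 34.3, 39.7 and 39.4 CPM for libraries 1 to 5, overlapped only the lowest naïve control library at 39.1 CPM. The log2 fold change of Nampt was -0.52 with a standard error of 0.18, and it was -0.19 after removal of the GC trend. Nadk, which makes NADP from NAD, had 128.1 ± 26.0 CPM in naïve control and 171.6 ± 18.5 CPM in laser treated libraries, and its log2 fold change was 0.42 with a standard error of 0.15. Nmnat3, a mitochondrial enzyme of the last step of NAD synthesis, had 0.78 with a standard error of 0.33. Of 9 other NAD consumers, the PARP family, tankyrases, Cd38, Bst1 and Sarm1, 3 were higher and 6 lower, with a median of -0.12 and none with an unadjusted p under 0.05.

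Of 9 regulators of sirtuins 6 were higher and 3 lower, and 1 had an unadjusted p under 0.05, or 11.1%, below the 15.9% of all genes. This was Senp1, a SUMO protease that acts on Sirt1, with a log2 fold change of -0.90 and a standard error of 0.37. Senp1 ran from 6.92 to 18.5 CPM in naïve control and from 3.37 to 8.84 CPM in laser treated libraries.

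Transcripts of genes listed as sirtuin targets were divided into a nuclear and a mitochondrial list. Of 20 nuclear targets 12 were higher and 8 lower, with 4 and 3 of them at an unadjusted p under 0.05, against 15.9% of all genes in either direction, and 3 of the 20 after removal of the GC trend, against 6.88%. Their median log2 fold change was 0.23. Tfam, whose protein acts in mitochondria, was counted among the 3 lower nuclear targets, at -0.47 (SE 0.19). It was named after its values were seen. Crtc2, a coactivator of CREB, was the 1 whose groups did not overlap, at 14.2 to 21.1 CPM in naïve control and 21.3 to 37.0 CPM in laser treated libraries, a separation in that direction that 1.4% of all genes had. Its log2 fold change was 0.72 with a standard error of 0.19. Rela, the p65 subunit of NF-kB, had 0.63 with a standard error of 0.16, and 0.38 after removal of the GC trend. Dek, a chromatin protein, had -0.78 with a standard error of 0.27, and -0.42 after that removal. Of 19 measured mitochondrial targets 13 were higher and 6 lower, with 6 and 1 at an unadjusted p under 0.05 and a median of 0.12. The 6 come to a larger share of the list than the 8.24% of all genes, but 0 of the 19 had such a p after removal of the GC trend, in which 6.88% of all genes did. Aldh2, mitochondrial aldehyde dehydrogenase, had 0.55 (SE 0.17), Mlycd, malonyl-CoA decarboxylase, had 0.48 (SE 0.15) and Acadvl, the enzyme that starts the oxidation of very long fatty acids, had 0.43 (SE 0.15), and after removal of the GC trend they had 0.39, 0.25 and 0.28. Sod2, the mitochondrial superoxide dismutase and a substrate of Sirt3, had -0.06 (SE 0.13), and was picked once its values were known.

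**Figure D5:**
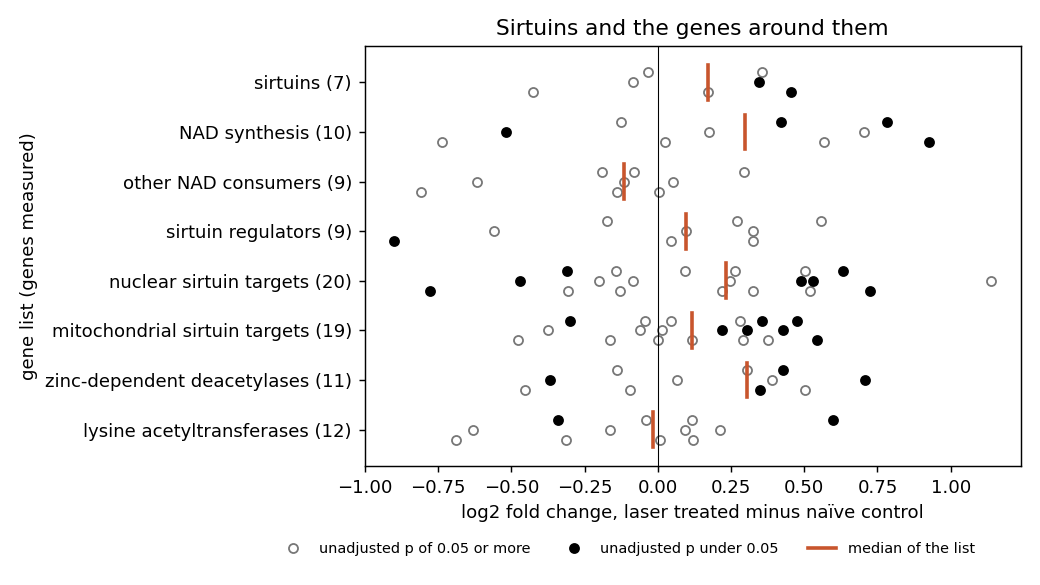
Log2 fold change, laser treated minus naïve control, of each measured gene of the sirtuin family and of 7 lists around it, with filled points for an unadjusted p under 0.05 in edgeR and a bar at the median of each list. The medians run from -0.12 for the other NAD consumers to 0.30 for the zinc-dependent deacetylases, and no point has an adjusted p under 0.05.

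The zinc-dependent deacetylases, Hdac1 to Hdac11, are the other family of lysine deacetylases and served as a comparison. All 11 were measured, 7 higher and 4 lower after laser, with 3 and 1 at an unadjusted p under 0.05, against 15.9% of all genes in either direction, and 3 of the 11 after removal of the GC trend, against 6.88%. Their median log2 fold change was 0.30, beside 4 higher and 3 lower sirtuins with a median of 0.17. Hdac10 ran from 13.0 to 25.2 CPM in naïve control and from 26.8 to 30.0 CPM in laser treated libraries, and Hdac1 from 33.2 to 43.9 and from 46.5 to 59.3 CPM. The groups of both genes did not overlap, which 1.4% of all genes showed with laser treated libraries higher. The log2 fold changes were 0.71 (SE 0.18) for Hdac10, 0.43 (SE 0.13) for Hdac1 and 0.35 (SE 0.13) for Hdac3, and after removal of the GC trend they were 0.52, 0.46 and 0.48. Whether the 2 families differed was not tested. The list of lysine acetyltransferases includes Naa10, which acts mainly on protein N-termini. Of the 12 genes of this list 6 were higher and 6 lower with a median of -0.02. An unadjusted p under 0.05 was found for 2 of them, or 16.7%, near the 15.9% of all genes, and for 0 after removal of the GC trend. Kat2a had 0.60 (SE 0.26) and Kat2b had -0.34 (SE 0.15), and 0.37 and -0.20 after that removal.

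Pearson's r of log2 CPM over the 11 libraries is given as a description, since the libraries differ in depth and GC slope. The genes with the most similar pattern to each sirtuin were taken by this r. For Sirt2 these were Fam63a at r = 0.96 and Ltbr at 0.95, and 7.18% of all genes had an r above 0.7 with it. For Sirt7 they were Samd10 at 0.91 and Fam105b at 0.90, and 1.97% of genes were above 0.7. Sirt1 was most like Zfhx2 at 0.92 and Pclo at 0.92, Sirt4 like Ngdn at 0.94 and Pla2g2c at 0.90, and Sirt5 like Chst12 at 0.93 and St6galnac6 at 0.90. Sirt6 was most like Zfp953 at 0.86 and Mrps5 at 0.86. For Sirt3 the most similar genes were Tsix, the antisense partner of Xist, at 0.92 and Bdh1, a mitochondrial ketone body enzyme, at 0.87. Tsix and Zfhx2 were low, at means of 1.29 and 0.96 CPM. No gene appeared for more than 1 sirtuin.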

How the data were processed

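RNA of 6 naïve control and 5 laser treated RPE/choroidal samples was sequenced. Per the submitters' processing notes, bcl2fastq 2.18.0.12, Trim Galore, STAR 2.5.3a, featureCounts 1.5.3, StringTie 1.3.3 and edgeR 3.22.3 were used, with the builds mm10 and GRCm38. The authors deposited raw counts per gene for each library, neither normalized nor pooled, and beside them columns of their own comparison, which hold fold changes and p-values and were not used here. They also deposited StringTie transcripts of each library with coverage, FPKM and TPM, of which coverage and TPM were used. The labels give n = 6 and n = 5.

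GENCODE M21 gave the GRCm38 position of 97.6% of the 14602 genes. Counts were compared with edgeR 4.0.16 in R 4.3.3 (TMM, filterByExpr, which removed 0 genes, robust quasi-likelihood F test, Benjamini-Hochberg adjustment over all genes), so that unadjusted and adjusted p-values are two-sided and from this fit unless another tool is named. The precision is given by the standard errors at 25700881 to 38755994 counts per library. Other tools were limma 3.58.1, DESeq2 1.42.0, Python 3.11.15, pandas 2.3.3, numpy 2.4.6, scipy 1.17.1 and matplotlib 3.10.9. A GC or length trend was a loess fit (span 0.3) of each library. The edgeR and DESeq2 fits were tested on simulated data. Of each pathway list, up to 3 members with the smallest unadjusted p under 0.05 and members with groups that did not overlap were named, and of each marker list the first 2 and those with an unadjusted p under 0.05, apart from some genes that are not reported here. The members and lists were chosen with earlier results of these data known. Alternatives were other normalizations, filters and tools, TPM, trends, the replicate block, the header label and single libraries left out. Assembled coverage, 2 libraries set aside, Y-linked expression as a covariate and another exon length were chosen after seeing the data.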

Additional observations from a re-analysis of the deposited data

Results flagged for a closer look

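The 16 groups of values were the 7 sirtuins and their summed level in each condition. A library was singled out where its gap to the nearest other library took up an unusually large share of the range of its group. The cutoff was a share that chance reaches in about 5% of groups. There were 3 such values, all in laser treated libraries. Laser treated 2 had 166.7 CPM of Sirt2, and the other 4 libraries had 117.3 to 129.1 CPM. Laser treated 3 had 18.8 CPM of Sirt5 beside 9.13 to 11.4 CPM in the others, and 10.2 CPM of Sirt6 beside 4.08 to 5.38 CPM. The causes were not tested.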

How the results depend on the processing

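No sirtuin had an adjusted p under 0.05 in any of 28 alternative settings. The log2 fold change stayed above 0 in all of them for Sirt2 (0.20 to 0.43), Sirt7 (0.29 to 0.56) and Sirt5 (0.15 to 0.47), and below 0 for Sirt1 (-0.79 to -0.12). The number of sirtuins with an unadjusted p under 0.05, 2 in edgeR, was 0 after removal of the GC trend and 0 with that removal and the replicate block, and 1 to 2 with single libraries left out, since Sirt7 lost it without laser treated 1 or laser treated 2. Of all genes, 0 had an adjusted p under 0.05 in edgeR, and there were 502 with DESeq2, 389 without naïve control 6 and laser treated 5, 2 with at least 10 counts in every library, 2 with log2(TPM + 1), 2 with log2(TPM + 0.1), 1 with limma voom, and 0 to 4 with single libraries left out, where 4 was found without laser treated 2. The causes were not tested.

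Sirt3 was at 0.015 with limma voom, 0.071 after removal of the GC trend, 0.10 with that removal and the replicate block, and 0.0100 with Y-linked expression as a covariate. Sirt4 was at 0.058 with limma voom, 0.28 and 0.29 with TPM and pseudocounts of 1 and 0.1, 0.0076 with the replicate block, 0.16 with assembled exon coverage, 0.016 without naïve control 6 and laser treated 5 and 0.095 with Y-linked expression, and from -0.16 to 0.067 with single libraries left out. Sirt6 was at -0.088 after removal of the GC trend, -0.055 with the block added, and from -0.11 to 0.39 with single libraries left out. The share of Sirt2 in the family, 47.8%, was 29.7% with TPM of the transcript files.

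Replicate numbers 1 to 5 are not said in the labels to pair the samples. The correlations of same-numbered deviations ran from -0.01 to 0.28, and 2 of the 5 numbers correlated best with their own. So few numbers cannot settle whether there is a pairing. With the number as a replicate block, Sirt2 was at 0.38 and Sirt7 at 0.49, both with an unadjusted p under 0.05. Depth limits Sirt6 most, with 72 to 358 counts per library.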

Other observations

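Laser treated 3 was the highest library of its group for 5 of the 7 sirtuins, Sirt1, Sirt3, Sirt4, Sirt5 and Sirt6, and the lowest for Sirt7. Sirt2 in it was the median of the group, at 126.0 CPM.

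The labels give no sex, and transcripts of sex chromosomes varied between libraries. In 5 libraries, 2 naïve control and 3 laser treated, the Y-linked genes Ddx3y, Eif2s3y, Kdm5d and Uty summed to 145.3 to 245.9 CPM and Xist was at most 2.41 CPM. In 5 others, 4 naïve control and 1 laser treated, Xist was 98.6 to 243.7 CPM and Y-linked transcripts at most 0.065 CPM. Laser treated 2 had both, with 8.29 CPM of Y-linked transcripts and 44.1 CPM of Xist. Sirt3 ran from 25.7 to 33.8 CPM in the libraries with Y-linked transcripts, from 33.5 to 39.0 CPM in those with Xist alone, and was 27.2 CPM in laser treated 2. Sirt1 ran from 5.44 to 21.1 and from 16.2 to 30.8 CPM in the same libraries. Sirt2 ran from 103.0 to 129.1 and from 95.1 to 126.0 CPM, with 166.7 CPM in laser treated 2. With Y-linked expression as a covariate the log2 fold change, laser treated minus naïve control, was 0.37 for Sirt2, 0.47 for Sirt7, 0.36 for Sirt5 and 0.41 for Sirt6, and it was -0.18 for Sirt1, 0.0100 for Sirt3 and 0.095 for Sirt4. These libraries were grouped after their values were seen, the groups share them unequally, and no difference between them was tested.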
